A study of Mus musculus with 6 samples.

Results

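The genes described here are 10 regulators and markers of the epithelial–mesenchymal transition (EMT), read from the gene table by their names. They are the transcription factors Snai1, Snai2, Zeb1, Zeb2 and Twist1, the mesenchymal markers Vim, Cdh2, Fn1 and S100a4, and the epithelial splicing factor Esrp1. All 10 were among the 34745 genes of the table, and 9 of them were among the 12941 genes tested, because Snai2 was removed by the filter on low counts. RNA was sequenced from MLE-12 cells, an immortalized mouse lung epithelial cell line, in 2 groups of 3 libraries. The NR4A1 overexpression group was transfected, using a lipid reagent, with a plasmid carrying the open reading frame of NR4A1, a nuclear receptor that acts as a transcription factor. The control group received the pCMV-SPORT6 vector, the backbone of that plasmid, so that both groups were transfected and the same single cell line stood behind all 6 libraries. The vector drives its insert from a strong viral promoter, and the share of cells that took up plasmid and the time from transfection to RNA extraction are not given in the sources used here. Nothing states that the replicates were separate cultures, so the p-values below measure only the spread between these libraries, which may be technical.

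In EMT, epithelial cells lose their junctions and apical-basal polarity and acquire the shape, motility and matrix production of mesenchymal cells. The Snail, Zeb and Twist families carry out the programme at the level of transcription. They bind E-box sequences in the promoters of epithelial genes such as Cdh1, which encodes E-cadherin, and repress them, while N-cadherin, vimentin and fibronectin become more abundant. Esrp1 acts on the epithelial side by keeping splicing of many transcripts in the epithelial form. In the lung, EMT of alveolar epithelial cells has been studied as a possible source of matrix-producing cells in fibrosis, and the study examined EMT genes in these cells beside its work on fibrosis.

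Nr4a1, the gene of the plasmid, had 50660, 60093 and 68555 counts in replicates 1, 2 and 3 of the NR4A1 overexpression group and between 428 and 510 counts in the control group. Its mean level was 135-fold higher in the NR4A1 overexpression group. The 6 libraries held between 15019038 and 17574340 counts, at which 3 counts correspond to between 0.17 and 0.203 CPM (a gene's counts relative to the library total, scaled here with TMM factors). NR4A1 overexpression replicate 2 stood apart from the other libraries. In it, 476 of the 12941 tested genes exceeded each of the other libraries at least 1.5-fold, against between 20 and 55 genes in each of the other 5 libraries. Among the genes high in that library were markers of other cell types, whose values are given with the results. Over 9 fibroblast markers other than Dcn, that library summed to 85.2 FPKM (fragments scaled by transcript length and library total). Vector control replicate 1 came next in this sum, at 8.58 FPKM, and the other 4 libraries held between 2.34 and 3.75. With Dcn, the 10 markers summed to 503 FPKM in NR4A1 overexpression replicate 2, 502 in vector control replicate 2 and 471 in vector control replicate 1. The comparisons of the members are therefore given with and without NR4A1 overexpression replicate 2. The lung epithelial label was checked with 10 markers. Sftpc, surfactant protein C, lay between 76.1 and 102 FPKM, Krt8 between 102 and 127 FPKM and Nkx2-1, the lung lineage transcription factor, between 18.3 and 27 FPKM. Other defining markers were absent or nearly so, since Sftpa1 had 0 counts in every library, Sftpd at most 2 counts, and Epcam at most 0.626 FPKM. Krt18 was at 6.92 FPKM in NR4A1 overexpression replicate 2 and at most 0.871 FPKM in the other libraries.

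The sequences upstream of 3 members are shown here because of what the members do in the results. S100a4 had the largest difference between the groups among the tested members, Vim had the highest level, and Snai1 was the only one of the members with a promoter entry that held the E-box that the factors themselves bind. The table of RefSeq promoters on GRCm38.p6 held entries for 5 of the 10 members (Vim, Zeb2, Snai1, S100a4 and Twist1), with 8 promoters in all. Each stretch runs 5′ to 3′ from 250 bases before the transcription start to 30 bases after it, on the plus strand. Capitals mark TATAAA, the TATA box, or CACCTG, the E-box. The stretches lie at chr3:90603520-90603799, chr2:13574061-13574340 and chr2:167537945-167538224.
S100a4: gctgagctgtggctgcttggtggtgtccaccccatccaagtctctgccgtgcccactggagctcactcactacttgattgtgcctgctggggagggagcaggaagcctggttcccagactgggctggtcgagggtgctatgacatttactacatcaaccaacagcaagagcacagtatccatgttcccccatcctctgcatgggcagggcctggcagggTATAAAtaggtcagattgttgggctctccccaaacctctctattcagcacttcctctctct
Vim: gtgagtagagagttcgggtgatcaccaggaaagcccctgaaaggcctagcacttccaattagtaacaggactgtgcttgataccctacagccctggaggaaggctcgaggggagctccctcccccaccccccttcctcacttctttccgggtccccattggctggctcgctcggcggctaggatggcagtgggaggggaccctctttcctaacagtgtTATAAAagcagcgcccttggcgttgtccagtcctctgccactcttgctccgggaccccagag
Snai1: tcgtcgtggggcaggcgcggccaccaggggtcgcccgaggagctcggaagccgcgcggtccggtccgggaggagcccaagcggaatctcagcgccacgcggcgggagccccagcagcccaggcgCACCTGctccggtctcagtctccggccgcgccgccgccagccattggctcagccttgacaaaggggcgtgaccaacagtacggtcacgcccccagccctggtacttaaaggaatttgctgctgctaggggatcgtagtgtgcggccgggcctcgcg
The TATA box starts 31 bases before the transcription start of S100a4 and 32 bases before that of Vim, and the E-box starts 126 bases before that of Snai1.

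In windows of 300 bases that run to 50 bases after the start, 13.6% of 32851 mouse promoters held TATAAA and 20.2% held CACCTG, on either strand. The binding element of NR4A1 as a monomer, AAAGGTCA, was in 1.51% of these promoters and in none of the 8 promoters of the members. The AP-1 element TGANTCA was in 7.81% of all promoters and, among the members, in 1 of the 4 promoters of Zeb2, which held 2 matches. Twist1 had a TATAAA starting 126 bases before its start. The motifs do not overlap one another in the stretches shown, and these matches are a description of letters in a window.

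In the vector controls the members spanned a wide range of levels per transcript length. Vim, the intermediate filament protein that is abundant in mesenchymal cells, was the highest at 89.9 ± 3.48 FPKM (SD, n = 3), above 96.8% of the tested genes. S100a4 followed at 16.2 ± 4.4 FPKM and Fn1 at 14.7 ± 3.27 FPKM, and the libraries of these neighbours overlapped. Cdh2, which encodes N-cadherin, was at 5.2 ± 0.438 FPKM and did not overlap its neighbours. The transcription factors were lower, as Zeb1 was at 2.59 ± 0.358, Snai1 at 2.38 ± 0.645 and Twist1 at 2.18 ± 0.178 FPKM. The libraries of Zeb1 overlapped those of Snai1, and those of Snai1 overlapped those of Twist1. Zeb2 followed at 0.903 ± 0.165 FPKM, clear of both its neighbours in this order. Esrp1 was at 0.208 ± 0.0311 FPKM, above 3.93% of the tested genes, and Snai2 was the lowest at 0.0379 ± 0.0437 FPKM. The mean FPKM of Vim was thus 432 times that of Esrp1.

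The epithelial genes of the control group also spanned a wide range. Krt19 and Krt8, keratins of simple epithelia, were at 227 ± 22.6 and 122 ± 4.32 FPKM in the vector controls (SD, n = 3). Cdh1, the classical target of the Snail and Zeb factors, was at 6.39 ± 0.159 FPKM, close to the level of Cdh2. In contrast, Esrp2, the paralog of Esrp1, was at 0.4 ± 0.0545 FPKM, and Grhl2 and Ovol2, transcription factors that maintain the epithelial state, had between 1 and 7 counts in every library of both groups. The vector controls thus held transcripts of keratins and E-cadherin beside those of vimentin, N-cadherin and fibronectin, with little RNA of Esrp1, Esrp2, Grhl2, Ovol2 and Epcam. In bulk RNA, fewer cells of a type and less RNA per cell cannot be told apart.

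**Figure D1:**
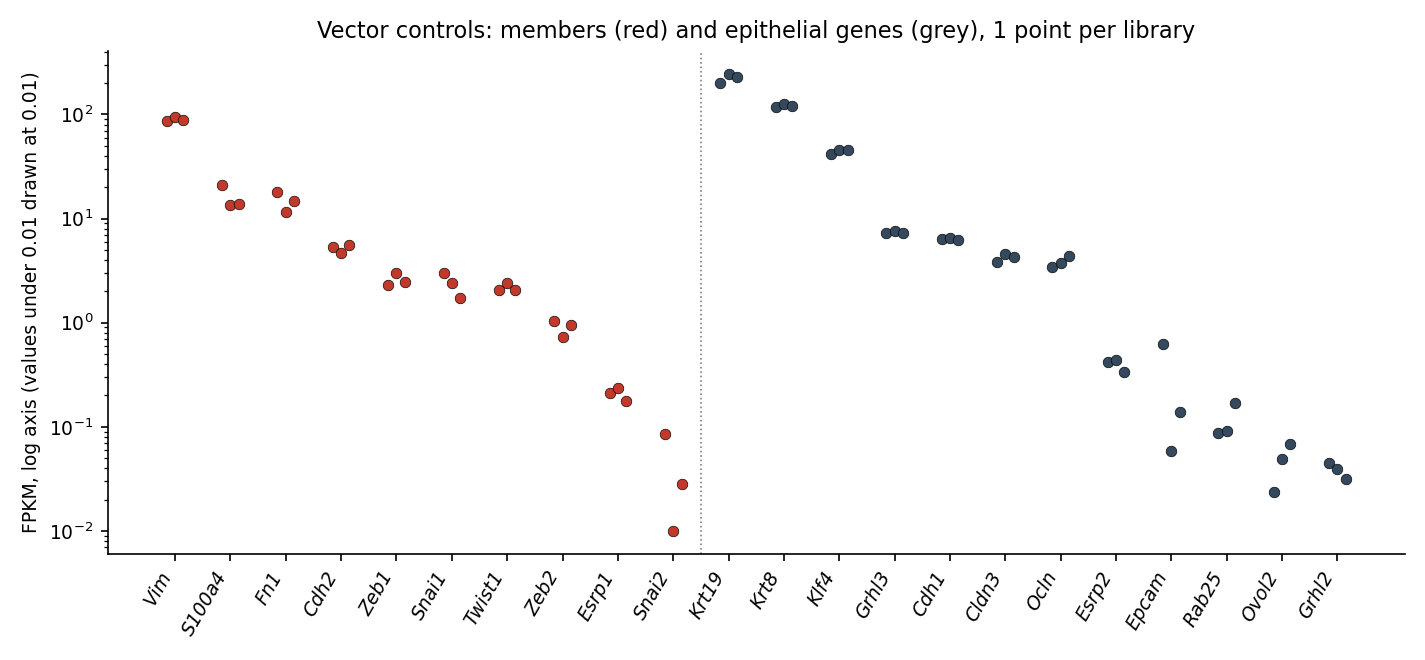
FPKM (log axis) of the 10 members, in red, and of 12 epithelial genes, in grey, in the 3 vector control libraries, with 1 point per library and values under 0.01 drawn at 0.01. Vim lies near 90 FPKM and Krt19 and Krt8 lie above 100, whereas Esrp1, Snai2, Esrp2, Epcam, Rab25, Ovol2 and Grhl2 lie under 1.

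Among the members, none met the threshold between the NR4A1 overexpression group and the control group, which asked for a fold change of 2 or more with an adjusted p below 0.05. This was 0 of the 9 tested members, where 0.170% of all tested genes passed (edgeR's quasi-likelihood test, 22 of 12941 genes). At an unadjusted p under 0.05, 2 of the 9 members, Zeb2 and S100a4, stood beside 6.46% of all tested genes. The same members were the only 2 of the 9 whose groups did not overlap, a separation found in 12.9% of all tested genes. Standard errors (SE) of log2 fold changes were derived from the same fit. Each is the size of the log2 fold change divided by the square root of its F statistic. The median log2 fold change was 0.45 over the 9 members and 0.01 over all tested genes. Without NR4A1 overexpression replicate 2, the medians were -0.06 and -0.00, and again 0 of the 9 members passed the threshold, beside 0.214% of the 13084 genes then tested.

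**Figure D2:**
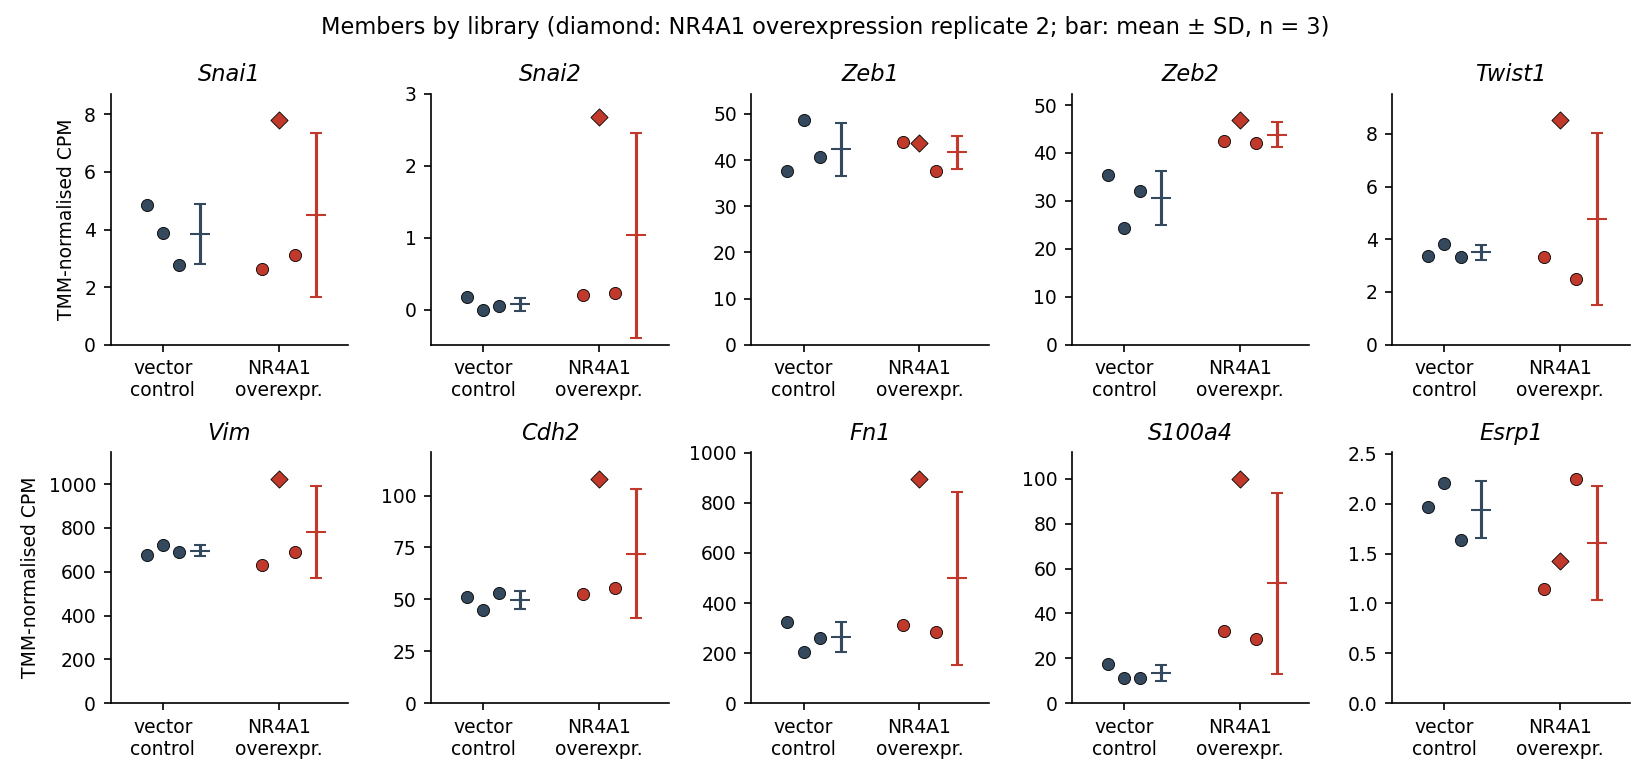
TMM-normalised CPM (linear axes) of each member in the 3 vector control libraries and the 3 NR4A1 overexpression libraries, with 1 point per library, the mean ± SD (n = 3) beside the points and replicate 2 of the NR4A1 overexpression group as a diamond. The diamond is the highest point of 8 members, while for Zeb1 the highest is a vector control and for Esrp1 it is NR4A1 overexpression replicate 3.

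Of the Snail family, Snai1 (ENSMUSG00000042821, chromosome 2 from 167538195 to 167542814 on GRCm38) encodes a zinc-finger repressor of Cdh1. Its counts were 39, 131 and 54 in the NR4A1 overexpression libraries and 84, 65 and 49 in the vector control libraries, each in the order of replicates 1, 2 and 3, as in all values that follow. After normalisation, replicate 2 of the NR4A1 overexpression group was at 7.79 CPM, while replicates 1 and 3, at 2.63 and 3.12 CPM, lay within or below the range of the control group, from 2.77 to 4.86 CPM. With all libraries its log2 fold change was 0.24 (SE 0.444, adjusted p = 0.968, edgeR's quasi-likelihood test). Without NR4A1 overexpression replicate 2 its sign turned, to -0.41 (SE 0.291, adjusted p = 0.679).

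Snai2 (ENSMUSG00000022676, chromosome 16 from 14705852 to 14709395), the family member also called Slug, was nearly silent. It had 3, 45 and 4 counts in the NR4A1 overexpression libraries and 3, 0 and 1 counts in the vector control libraries. All vector controls were thus at or under 3 counts, the floor used here. In NR4A1 overexpression replicate 2 Snai2 exceeded that floor (0.179 CPM at most in the vector controls) at least 15-fold. The mean of the NR4A1 overexpression group was at least 5.8-fold above it, which rests on the same library, since replicates 1 and 3 were at 3 and 4 counts. Snai2 was removed by the count filter from the fit used for the other members. In the edgeR fit with no count filter its log2 fold change, which depends on the prior count at these levels, was 3.63 (unadjusted p = 0.0254, adjusted p = 0.808), and 1.41 without NR4A1 overexpression replicate 2 (adjusted p = 0.784).

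Zeb1 and Zeb2 encode zinc-finger homeodomain repressors that microRNAs of the miR-200 family hold in check in epithelial cells. Zeb1 (ENSMUSG00000024238, chromosome 18) had 650, 734 and 652 counts in the NR4A1 overexpression libraries and 652, 816 and 718 counts in the vector control libraries. The groups overlapped, with 41.7 ± 3.56 CPM against 42.3 ± 5.67 CPM (SD, n = 3 each). Its log2 fold change of -0.02 (SE 0.12, adjusted p = 0.987, edgeR's quasi-likelihood test) was the smallest in size among the members, and its sign turned when NR4A1 overexpression replicate 3 or vector control replicate 2 was left out. Without NR4A1 overexpression replicate 2 it was -0.06 (SE 0.135, adjusted p = 0.901).

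Zeb2 (ENSMUSG00000026872, chromosome 2 from 44983632 to 45117395, minus strand) was higher in every NR4A1 overexpression library than in every vector control. It was at 42.6, 46.8 and 42.1 CPM in the NR4A1 overexpression replicates and at 35.4, 24.3 and 32.1 CPM in the vector controls. The groups therefore did not overlap, but the lowest NR4A1 overexpression library was only 1.19 times the highest vector control. The fitted log2 fold change was 0.52 (SE 0.141, unadjusted p = 0.00766), and the adjusted p was 0.453 from edgeR's quasi-likelihood test. Leaving out NR4A1 overexpression replicate 2 gave a log2 fold change of 0.47 (SE 0.155, adjusted p = 0.545). The ratio of Zeb1 to Zeb2, taken from FPKM and chosen after the values were seen, lay between 1.85 and 2.13 in the NR4A1 overexpression libraries and was 2.21, 4.14 and 2.62 in the vector controls. The antisense gene Zeb2os, which overlaps Zeb2, had at most 13 counts in any library.

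Twist1 (ENSMUSG00000035799, chromosome 12 from 33957671 to 33959817) encodes a basic helix-loop-helix factor of mesoderm and neural crest development. It had 49, 143 and 43 counts in the NR4A1 overexpression libraries and 58, 64 and 59 counts in the vector control libraries. The vector controls were tightly spaced between 3.34 and 3.81 CPM, and NR4A1 overexpression replicates 1 and 3, at 3.31 and 2.48 CPM, lay just under them, whereas replicate 2 was at 8.51 CPM. The log2 fold change of 0.45 (SE 0.448, adjusted p = 0.921, edgeR's quasi-likelihood test) became -0.28 without replicate 2 (SE 0.238, adjusted p = 0.715). Without that library Twist1 was lower in both NR4A1 overexpression libraries than in every vector control. Together with Zeb2 and S100a4 this made 3 of 9 members without overlap, beside 27.5% of the genes tested in those 5 libraries.

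Among the structural markers, Vim (ENSMUSG00000026728, chromosome 2 from 13573927 to 13582826) had 9340, 17214 and 11980 counts in the NR4A1 overexpression libraries and 11696, 12136 and 12213 counts in the vector control libraries. The vector controls agreed closely, at 697 ± 24.1 CPM (SD, n = 3). NR4A1 overexpression replicate 2, at 1024 CPM, was above all of them, replicate 1, at 631 CPM, was below all of them, and replicate 3, at 691 CPM, was among them. The log2 fold change was 0.17 (SE 0.176, adjusted p = 0.923, edgeR's quasi-likelihood test) and without replicate 2 it was -0.08 (SE 0.0839, adjusted p = 0.768). The ratio of Vim to Krt8 in FPKM was 0.78, 1.14 and 0.767 in the NR4A1 overexpression replicates and between 0.734 and 0.739 in the vector controls. Vim was thus above Krt8 in FPKM in NR4A1 overexpression replicate 2 alone.

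Cdh2 (ENSMUSG00000024304, chromosome 18) encodes N-cadherin, the cadherin of mesenchymal and neural cells. It was at 52.4, 108 and 55.6 CPM in the NR4A1 overexpression replicates and at 51.2, 44.8 and 53.2 CPM in the vector controls. Replicate 2 was 2-fold above the mean of the other NR4A1 overexpression libraries, and replicate 1 lay among the vector controls. The log2 fold change was 0.54 (SE 0.275, adjusted p = 0.828, edgeR's quasi-likelihood test), and without replicate 2 it was 0.12 (SE 0.105, adjusted p = 0.724). Cdh1, on the other side of the cadherin balance, was at 5.57, 4.71 and 5.39 FPKM in the NR4A1 overexpression replicates and at 6.35, 6.57 and 6.26 FPKM in the vector controls. All 3 NR4A1 overexpression libraries were thus below all vector controls in Cdh1, but its log2 fold change of -0.27 (SE 0.0887) had an adjusted p of 0.639, and without replicate 2 it was -0.20 (adjusted p = 0.606). The ratio of Cdh2 to Cdh1 in FPKM was chosen after the values were seen. It was 0.963, 2.37 and 1.07 in the NR4A1 overexpression replicates and 0.839, 0.717 and 0.887 in the vector controls. The groups did not overlap in this ratio, nor in Cdh1 alone, but they overlapped in Cdh2 alone. The ratio is therefore no result separate from that of Cdh1, and the share of other ratios without overlap is not given.

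Fn1 (ENSMUSG00000026193, chromosome 1 from 71585520 to 71653200, minus strand) encodes fibronectin, a glycoprotein of the extracellular matrix. It had 4629, 15052 and 4949 counts in the NR4A1 overexpression libraries and 5631, 3464 and 4625 counts in the vector control libraries. Replicate 2 was at 896 CPM, and replicates 1 and 3, at 313 and 286 CPM, lay within the range of the vector controls, from 206 to 325 CPM. The SD of the NR4A1 overexpression group, 345 CPM around a mean of 498 CPM, was accordingly larger than its distance from the control mean of 265 CPM. The log2 fold change was 0.91 (SE 0.442, adjusted p = 0.81, edgeR's quasi-likelihood test) and 0.18 without replicate 2 (SE 0.176, adjusted p = 0.749).

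S100a4 (ENSMUSG00000001020, chromosome 3 from 90603771 to 90606045) had the largest difference of the 9 tested members. It encodes a small calcium-binding protein, also known as fibroblast-specific protein, that binds non-muscle myosin and is found in fibroblasts and in several kinds of immune cell. It had 475, 1680 and 493 counts in the NR4A1 overexpression libraries and 305, 186 and 202 counts in the vector control libraries. All NR4A1 overexpression libraries, at 32.1, 100 and 28.4 CPM, were above all vector controls, at 17.6, 11.1 and 11.4 CPM, and the lowest of them was 1.61 times the highest vector control. The fitted difference was 4-fold, a log2 fold change of 2.0 (SE 0.506, unadjusted p = 0.00529). Its adjusted p was 0.372 from edgeR's quasi-likelihood test, so that it did not pass the threshold.

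The difference in S100a4 was smaller but more even without NR4A1 overexpression replicate 2. In those 5 libraries it was 2.26-fold, a log2 fold change of 1.18 (SE 0.205, unadjusted p = 0.000667), and its adjusted p was 0.114 in the quasi-likelihood test of edgeR. At an unadjusted p under 0.05, Zeb2 and S100a4 were again 2 of 9 members, beside 8.19% of all genes tested there. Whether S100a4 passed the threshold in these libraries depended on the method, in fits chosen after the data had been seen. It passed with DESeq2 (adjusted p = 0.000192, where 0.504% of the genes with an adjusted p passed) and with edgeR and no count filter (adjusted p = 0.0195, 0.263% of genes passed). It did not pass with limma-voom (adjusted p = 0.078). Without both NR4A1 overexpression replicate 2 and vector control replicate 1, the vector control with the highest S100a4, the log2 fold change was 1.43 (SE 0.145) and the adjusted p from edgeR was 0.011, with 0.363% of genes passing. Leaving out the highest vector control raises the difference by construction, so that this last fit is no separate support. In each of these 3 fits S100a4 was the only member past the threshold, and with all 6 libraries DESeq2 gave an adjusted p of 0.0917.

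Markers of other cell types had the following levels in NR4A1 overexpression replicates 1 and 3, and their part in the difference of S100a4 was not tested. Summed over 9 fibroblast markers other than Dcn, those 2 libraries held 3.75 and 2.34 FPKM, against 8.58, 2.6 and 3.31 FPKM in the vector controls. Dcn was left out of that sum because MLE-12 libraries of both groups held it between 418 and 500 FPKM. The 8 immune markers summed to 4.18 and 5.81 FPKM in the same 2 libraries and to between 4.17 and 6.07 FPKM in the vector controls. The 9 smooth muscle markers summed to 0.507 and 0.761 FPKM there, below the 0.803 to 1.59 FPKM of the vector controls. The 10 endothelial markers summed to 1.64 and 1.87 FPKM there and to between 1.73 and 1.77 FPKM in the vector controls, so that 1 library lay below and 1 above that range. As a limit of the counting, S100a4 overlaps Gm42674 on the same strand, with which it shares 47.4% of its stretches of 50 bases. Gm42674 had 0 counts in 5 libraries and 4 counts in NR4A1 overexpression replicate 3. The 7 tested neighbours from the S100 gene cluster had a median log2 fold change of -0.00, and S100a6, S100a10 and S100a11, the most abundant of them, had log2 fold changes of 0.21, -0.00 and 0.09 with adjusted p-values of 0.945 or more. Without NR4A1 overexpression replicate 2 the median of the neighbours was -0.19, and S100a6, S100a10 and S100a11 were at -0.19, -0.13 and -0.31, with 0 neighbours under an adjusted p of 0.05.

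Esrp1 (ENSMUSG00000040728, chromosome 4 from 11331933 to 11386783, minus strand), the epithelial member, had low counts. It had 17, 24 and 39 counts in the NR4A1 overexpression libraries and 34, 37 and 29 counts in the vector control libraries. The groups overlapped, and NR4A1 overexpression replicate 3, at 2.25 CPM, was the highest of all 6 libraries. Its log2 fold change was -0.26 (SE 0.312, adjusted p = 0.942, edgeR's quasi-likelihood test), and -0.18 without NR4A1 overexpression replicate 2 (SE 0.362, adjusted p = 0.88).

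**Figure D3:**
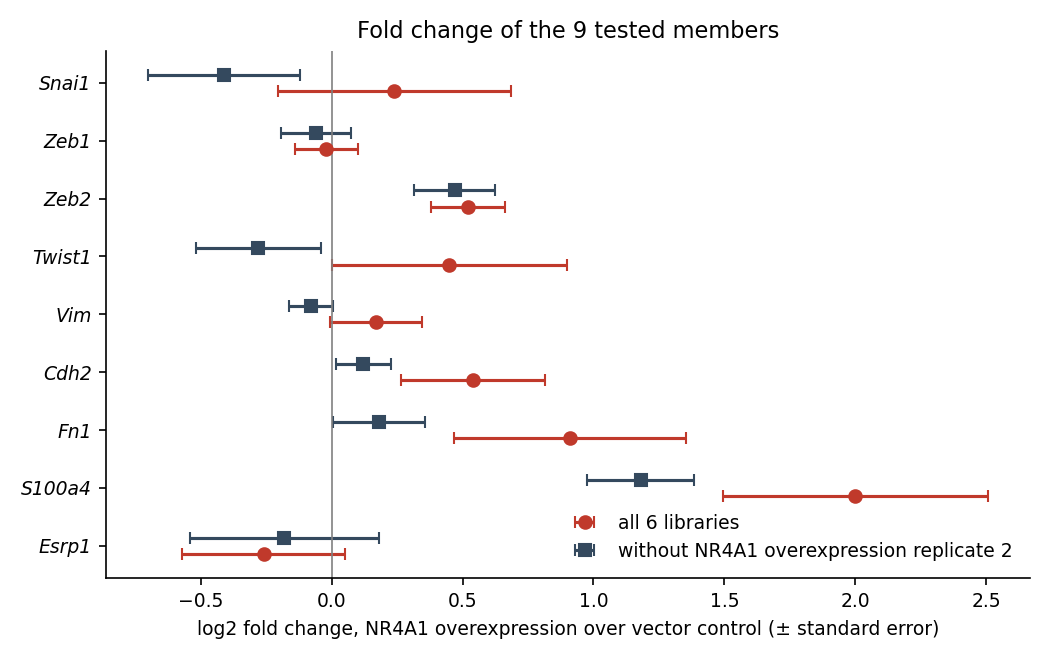
Log2 fold change (± standard error) of the 9 tested members, NR4A1 overexpression over vector control, from the fit to all 6 libraries (red circles) and from the fit without NR4A1 overexpression replicate 2 (grey squares). Snai1, Twist1 and Vim change sign without that library, Cdh2 and Fn1 move to 0.12 and 0.18, and Zeb2 and S100a4 stay at 0.47 and 1.18.

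The members did not share 1 pattern over the libraries. In NR4A1 overexpression replicate 2, 7 of the 9 tested members, and Snai2, had their highest value, beside 22.7% of all tested genes for which that library was the highest. At least 1.5-fold above every other library were 5 of the 9 (Snai1, Twist1, Cdh2, Fn1 and S100a4), beside 3.68% of all tested genes. Against the mean of replicates 1 and 3, replicate 2 was 3.3-fold higher for S100a4, 2.99-fold for Fn1, 2.94-fold for Twist1, 2.71-fold for Snai1, 2-fold for Cdh2 and 1.55-fold for Vim. For Zeb2 and Zeb1 the ratios were 1.11 and 1.07, and for Esrp1 it was 0.84. The median log2 ratio was 1.0 over the 9 tested members and 0.01 over all tested genes. In absolute terms the largest additions in replicate 2 were those of Fn1, with 597 CPM over the mean of replicates 1 and 3, and Vim, with 363 CPM.

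Markers of other cell types stood high in the same library. All 9 smooth muscle markers were highest in NR4A1 overexpression replicate 2, where they summed to 183 FPKM, against between 0.507 and 1.59 FPKM in the other 5 libraries. Most of that sum was Acta2, at 127 FPKM, and Tagln, at 51.2 FPKM, which are also in the list of other mesenchymal and matrix genes. Each of the remaining markers was at most 1.35 FPKM there, and Casq2 had only 2 counts, under the floor. The 10 endothelial markers summed to 18.2 FPKM in NR4A1 overexpression replicate 2 and to between 1.64 and 1.87 FPKM elsewhere. Of them, 6, namely Cdh5, Kdr, Tie1, Sox17, Erg and Cldn5, had 0 counts in every other library. Sox17 and Cldn5 had only 5 and 3 counts in replicate 2 itself, and 3 counts is the floor. Tek went the other way, at between 0.814 and 0.976 FPKM elsewhere and at 0.695 FPKM, its lowest, in NR4A1 overexpression replicate 2. Of the 10 fibroblast markers, 8 were highest in that library and 7 exceeded each of the others at least 2-fold. Dcn, the most abundant of them, was lowest in it, at 418 FPKM against between 436 and 500 FPKM elsewhere. Lum was at 1.39 FPKM in it and between 1.39 and 2.06 FPKM elsewhere. All 10 fibroblast markers summed to 503 FPKM in that library and to between 439 and 502 FPKM in the others. The 8 immune markers summed to 5.5 FPKM in it, within the range of the other libraries from 4.17 to 6.07 FPKM. The 10 lung epithelial markers summed to 266 FPKM, also within the range of the others, from 228 to 279 FPKM. The part of these other cell types in the values of the members was not tested.

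**Figure D4:**
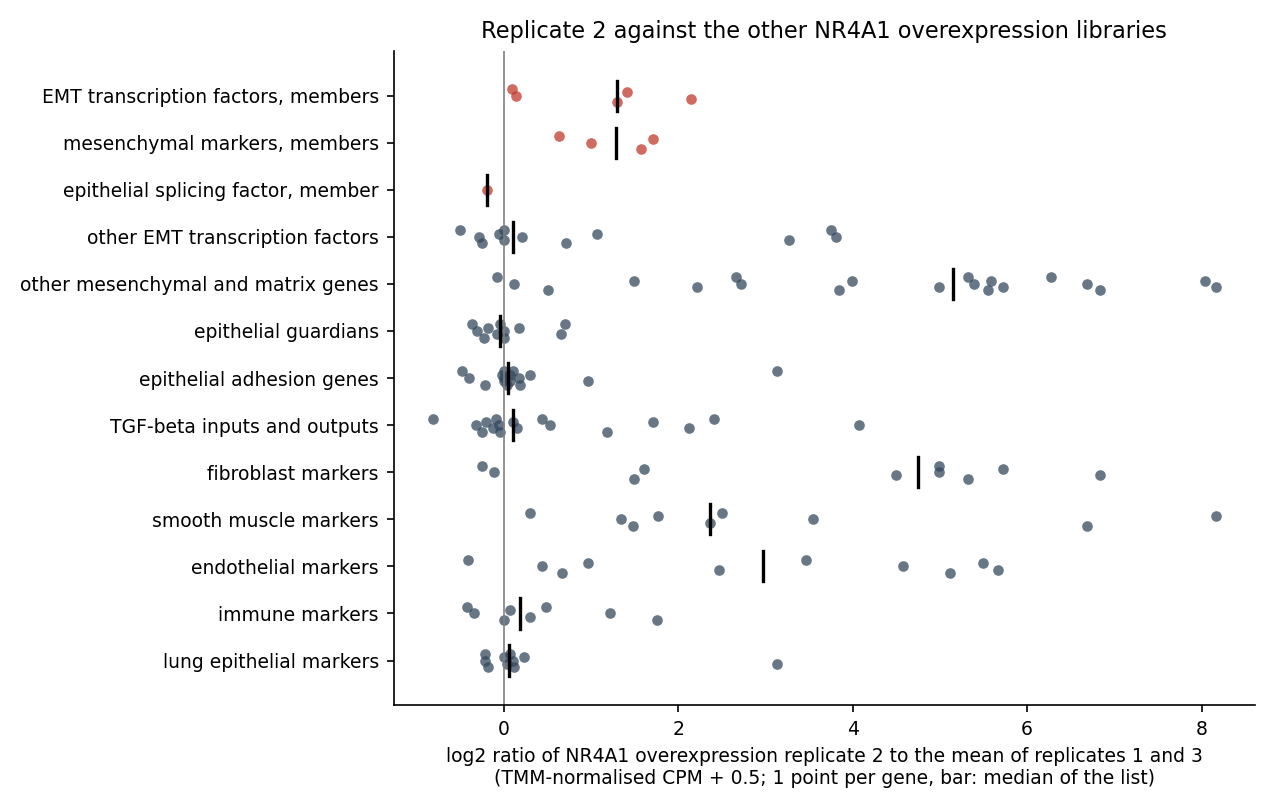
Log2 ratio of NR4A1 overexpression replicate 2 to the mean of replicates 1 and 3 (TMM-normalised CPM with 0.5 added), with 1 point per gene, members in red and a black bar at the median of each list. The other mesenchymal and matrix genes and the fibroblast, smooth muscle and endothelial markers lie mostly to the right of the members, while epithelial, immune and lung epithelial lists centre near 0.

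By the shape of their profile over the 6 libraries, the genes nearest to the members with the widest span were as follows. The measure was the root mean square distance of log2(CPM + 0.5), centred on each gene's mean. Nearest to S100a4 were Eda2r (0.125), Steap1 (0.148) and Eml1 (0.151). Nearest to Fn1 were Wipf1 (0.0696), Plekho2 (0.127) and Errfi1 (0.128), and nearest to Cdh2 were Npc1 (0.0594), Col4a1 (0.0734) and Fhl2 (0.0856). Snai1 had Plcd1 (0.127), Serpinb9b (0.144) and Fam26e (0.154) as its nearest genes, and Twist1 had Ifi204 (0.0798), Rras2 (0.0884) and Hoxb8 (0.0948). All 15 of these genes had, in NR4A1 overexpression replicate 2, at least 1.74 times the mean of replicates 1 and 3. This follows from their choice by likeness to members that were high in that library, and is not a separate result.

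The other genes of the EMT programme were read by list, beside the members. Of 12 other EMT transcription factors, 9 were tested, 0 had an adjusted p under 0.05 in either direction, and the median log2 fold change was 0.43, against 0.27 without NR4A1 overexpression replicate 2. Sox4, a factor that acts early in EMT downstream of TGF-beta, was the most abundant. It was at 59.7, 47.4 and 52.8 FPKM in the NR4A1 overexpression replicates and at 40.7, 36.8 and 42.6 FPKM in the vector controls, without overlap. Its log2 fold change was 0.43 (SE 0.107, adjusted p = 0.353, edgeR's quasi-likelihood test) with all libraries and 0.51 without replicate 2 (adjusted p = 0.172). Hmga2, a chromatin protein that induces Snai1 and Twist1, was at 4.44 FPKM in NR4A1 overexpression replicate 2 and at most 0.328 FPKM in the other libraries. Foxc2 and Prrx1 were at 2.28 and 1.63 FPKM in that library and at most 0.0852 and 0.215 FPKM elsewhere.

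Of 20 other mesenchymal and matrix genes, 15 were tested and 0 had an adjusted p under 0.05, although all 15 had a positive log2 fold change, with a median of 2.72. That median turned to -0.73 without NR4A1 overexpression replicate 2. Col1a1, Col1a2, Col3a1, Thy1 and Fap of this list are also fibroblast markers, and Acta2 and Tagln are also smooth muscle markers. The results of these lists are therefore not separate. In NR4A1 overexpression replicate 2, 18 of the 20 genes had their highest level and 17 exceeded each of the other libraries at least 2-fold. Acta2 reached 127 FPKM there, Tagln 51.2, Lox 45.9 and Col1a1 35.7 FPKM, while the highest values elsewhere were 0.489, 0.842, 1.41 and 2.54 FPKM. Among the 5 other libraries, vector control replicate 1 was the highest for 15 of the 20 genes. The lowest adjusted p of the list was 0.0734, that of Cd44, a receptor for hyaluronan. Cd44 was at 8.64, 8.69 and 7.41 FPKM in the NR4A1 overexpression replicates and at 5.7, 5.35 and 5.4 FPKM in the vector controls, and its log2 fold change was 0.61 (SE 0.0932) with all libraries and 0.57 without replicate 2 (adjusted p = 0.118).

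No gene of the groups that oppose EMT passed the test. Of 11 guardians of the epithelial state, 6 were tested and 0 had an adjusted p under 0.05, with a median log2 fold change of 0.01, or 0.06 without NR4A1 overexpression replicate 2. The highest were Klf4, at 38.9 ± 1.56 FPKM with NR4A1 overexpression and 44.3 ± 1.89 FPKM with the vector, and Grhl3, at 6.23 ± 0.36 and 7.39 ± 0.189 FPKM (SD, n = 3 each). Their log2 fold changes were -0.16 and -0.22, with adjusted p-values of 0.776 and 0.724 from edgeR's quasi-likelihood test, and -0.14 and -0.21 without replicate 2. Of 16 epithelial adhesion genes, 11 were tested, 9 had a negative and 2 a positive log2 fold change, and 0 had an adjusted p under 0.05, with a median of -0.12. Without NR4A1 overexpression replicate 2 that median was -0.15. Those of Krt19 and Krt8, the highest of the list, were -0.25 and -0.12, and those of Tjp1 and Jup, which encode junction proteins, were -0.08 and -0.17. Their adjusted p-values were 0.772 or more. Without replicate 2 the log2 fold changes of Krt19, Krt8, Tjp1 and Jup were -0.31, -0.15, 0.04 and -0.19.

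TGF-beta is the best-known inducer of the Snail and Zeb factors. Of 17 genes of its pathway and its targets, all in the table, 16 were tested and 0 had an adjusted p under 0.05. The median log2 fold change was 0.07, or 0.01 without NR4A1 overexpression replicate 2. Tgfb1 was at 4.44, 6.82 and 5.6 FPKM in the NR4A1 overexpression replicates and at 5.26, 6.31 and 5.22 FPKM in the control group. Its log2 fold change of 0.03 (SE 0.161) gave an adjusted p of 0.987 in the quasi-likelihood test of edgeR, and without replicate 2 it was -0.13 (adjusted p = 0.75). The target Ctgf was at 54.3 FPKM in NR4A1 overexpression replicate 2 and at most 12.9 FPKM in the other 5 libraries. Among 12 partners of fibronectin and the cadherins, 8 were tested, with 0 genes under an adjusted p of 0.05 and a median of 0.10 both with and without replicate 2. Itga5, which pairs with Itgb1 as the fibronectin receptor, was at 23.2 FPKM in NR4A1 overexpression replicate 2 and between 4.61 and 5.95 FPKM elsewhere. Itgb1 itself was between 263 and 303 FPKM in all 6 libraries. Of the 7 partners of vimentin and related filaments, 6 were tested, 0 had an adjusted p under 0.05, and the median was -0.09, or -0.16 without replicate 2.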

How the data were processed

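RNA was extracted from MLE-12 cells of 2 groups of 3 libraries, and groups and replicate numbers were taken from the labels. Per the study's methods, libraries were made with a strand-specific total RNA kit, while the labels also name an mRNA isolation step. The submitters' processing notes name HISAT2 2.0.4 and GRCm38.p4. The counting program, its strand setting and the annotation are not given in the sources used here, so reads of a gene and its antisense partner cannot be told apart.

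The authors deposited 1 table with raw read counts and with FPKM values per gene and library. Counts were filtered with filterByExpr, scaled with TMM factors and compared between the groups by the quasi-likelihood test of edgeR 4.0.16 (R 4.3.3), with p-values adjusted over all tested genes after Benjamini and Hochberg. The threshold was a fold change of 2 or more with an adjusted p below 0.05. FPKM was used to compare levels between genes. Each library held between 15019038 and 17574340 counts, and 3 counts were taken as the floor. The floor covers counting error only. Levels are TMM-normalised CPM. Lists are described by counts and medians and were not tested as sets.

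The members, the gene lists and the choice of leaving out NR4A1 overexpression replicate 2 were made with earlier results of these data known. The text names all 10 members, in each list up to 4 genes of the highest mean FPKM or of the largest ratio of NR4A1 overexpression replicate 2 to the highest other library, and for each tested member spanning over 1 on the log2 scale its 3 nearest genes. Cdh1, Cd44, Tgfb1, Epcam and some further list genes were named after their values were seen. Shared 50-base stretches were counted in transcripts of GENCODE M21, and promoters are those of RefSeq on GRCm38.p6. Alternatives were DESeq2 1.42.0, limma-voom and limma on log2(FPKM + 1) and log2(FPKM + 0.1) (limma 3.58.1), other scalings and filters, the replicate number as a block and each library left out in turn. The code was tested on simulated counts.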

Additional observations from a re-analysis of the deposited data

How the results depend on the processing

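Of the alternatives, those without NR4A1 overexpression replicate 2 turned the most signs. Without it the log2 fold changes of Snai1, Twist1 and Vim were -0.41, -0.28 and -0.08. With limma-voom in the same 5 libraries they were -0.37, -0.30 and -0.08, with DESeq2 -0.41, -0.28 and -0.07, with no count filter -0.41, -0.28 and -0.08, and without vector control replicate 1 as well -0.20, -0.31 and -0.10. That of Zeb1 was 0.04 without NR4A1 overexpression replicate 3 and 0.09 without vector control replicate 2. None of these 17 values passed the threshold, and the cause was not tested. The number of members past the threshold was 1, S100a4, in 4 alternatives. These were a 2-fold change with an unadjusted p below 0.05, and, chosen after the data had been seen, DESeq2 without NR4A1 overexpression replicate 2 (log2 fold change 1.18), no count filter without it (1.17), and edgeR without it and vector control replicate 1 (1.43). In all other alternatives run it was 0. Vector control replicate 1 had the highest S100a4 of the vector controls, so leaving it out raised the difference by construction. At an unadjusted p below 0.05 alone, 6.46% of all genes tested with edgeR in all 6 libraries passed. The share that also had a 2-fold change is not given, so that call of S100a4 has no matching share beside it. Over all alternatives the adjusted p of S100a4 lay between 0.000192 and 0.996 and that of Zeb2 between 0.11 and 0.972, and both kept a positive log2 fold change, as did Cdh2 and Fn1, while Esrp1 kept a negative one. With each library left out in turn, the log2 fold change lay between 1.18 and 2.29 for S100a4, 0.38 and 0.63 for Zeb2, 0.18 and 1.18 for Fn1, 0.12 and 0.72 for Cdh2, -0.59 and -0.07 for Esrp1, -0.41 and 0.51 for Snai1, -0.28 and 0.75 for Twist1, -0.08 and 0.30 for Vim, and -0.10 and 0.09 for Zeb1. Zeb1 was at -0.13 without both NR4A1 overexpression replicate 2 and vector control replicate 1. The number of members without overlap between the groups lay between 2 and 3. Of all tested genes, 12.9% had no overlap with all 6 libraries and 27.5% without NR4A1 overexpression replicate 2. The shares with other libraries left out are not given. By CPM, which is not scaled by length, 3 of the 10 members kept their rank by FPKM in the vector controls. Over all genes, between 3 genes (edgeR without NR4A1 overexpression replicate 3) and 73 genes (DESeq2) passed the threshold, against 22.

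Libraries of the same replicate number deviated from their group means with correlations of -0.0111, -0.046 and 0.246 over genes for replicates 1, 2 and 3. Correlations between different numbers are not given beside them, so these values cannot decide whether the numbers pair the libraries. In the fit with a replicate block, 0 members and 5 genes in all passed the threshold, and the log2 fold change of S100a4 was 1.77 (adjusted p = 0.417, edgeR's quasi-likelihood test) and that of Zeb2 0.53 (adjusted p = 0.425). Depth limits Snai2, with at most 4 counts in 5 libraries, and Esrp1, with at most 39.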

Other observations

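The values of 3 genes, Lgals1, Anxa2 and S100a11, are given here and were chosen after they were seen. Other genes of the same lists had other orders, as in FPKM Plec and Synm were highest in vector control replicate 1 and S100a10 in vector control replicate 2. Lgals1, which encodes galectin-1, was at 677, 1156 and 800 FPKM in NR4A1 overexpression replicates 1, 2 and 3 and at 786, 902 and 762 FPKM in vector control replicates 1, 2 and 3. Anxa2, annexin A2, was at 109, 195 and 127 FPKM in the NR4A1 overexpression replicates and at 135, 163 and 145 FPKM in the vector controls. S100a11 was at 168, 338 and 180 FPKM against 203, 257 and 196 FPKM. In all 3 genes NR4A1 overexpression replicate 2 was the highest library, vector control replicate 2 the next and NR4A1 overexpression replicate 1 the lowest. Their log2 fold changes between the groups were 0.13, -0.02 and 0.09, with adjusted p-values of 0.955, 0.992 and 0.976 from edgeR's quasi-likelihood test. Of the members, Vim had the same highest, next and lowest libraries.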
